A study of Mus musculus with 2 samples.

Results

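The insulin-like growth factor (IGF) system was followed here through 10 genes in mouse hind limb muscle at 7 dpi (days post-injury) after injury of the peroneal nerve. They are the ligands Igf1 and Igf2, the receptors Igf1r and Igf2r, and the binding proteins Igfbp2, Igfbp3, Igfbp4, Igfbp5, Igfbp6 and Igfbp7. They were taken by symbol from the 32287 features of the count files, and the list was chosen with earlier results of these data known. Each of the 10 had UMIs (unique molecular identifiers, 1 per captured transcript) in both libraries. Their UMIs were summed over the cells of each class and library, with classes gated on marker genes that include none of the 10.

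Both libraries came from pooled male mice, named C57BL/6J in the labels and S100GFP-tg in the study's methods, aged 10 to 16 weeks, after bilateral injury of the peroneal nerve. In S100GFP-tg mice the S100B promoter drives GFP, which is used to see Schwann cells (SCs). The tibialis anterior of each leg received 10 µL with 2 µg of either goat anti-mouse IgG (IgG library) or SPP1 neutralizing antibody (SPP1-nAb library), repeated every 2 days. SPP1 (osteopontin) is a secreted matrix protein, and since the antibody binds the protein, no transcript level can check the labels. The labels' protocol gives tibialis anterior and gastrocnemius as the muscles taken, while the study's text names tibialis anterior for this experiment. The gastrocnemius is not supplied by the peroneal nerve and was not injected, so uninjured muscle in the libraries cannot be told apart from injured muscle. Live GFP+ and GFP- cells were sorted for scRNA-Seq, although both library titles name S100GFP-positive cells.

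IGF1 and IGF2 are secreted growth factors that drive growth through the receptor tyrosine kinase encoded by Igf1r and the PI3K, AKT and mTOR pathway. The receptor encoded by Igf2r carries mannose 6-phosphate tagged enzymes and clears IGF2 from the cell surface. Binding proteins hold the ligands in serum and matrix, and proteases that cut them release the ligand. In muscle, IGF1 from fibroblasts and macrophages is known to act on myofibres, satellite cells and motor axons.

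The IgG library held 23779 barcodes and 97607674 UMIs, and the SPP1-nAb library 25069 barcodes and 127719916 UMIs. After filters and doublet removal 21047 and 22283 cells were kept, with medians of 3644 and 4581 UMIs, and 163 barcodes occurred in both libraries. A Gfp UMI was found in 32.5% of kept IgG cells and 45.5% of kept SPP1-nAb cells. Of the kept cells, 86.8% and 87.1% fell into a class. Cell classes differed in size: fibro-adipogenic progenitors (FAPs), the interstitial fibroblasts of muscle, made up 7.94% of IgG cells and 2.98% of SPP1-nAb cells, and lipid-handling phagocytes 10.3% and 23.0%. With 1 library per condition no test between conditions was possible. Levels are therefore given as CPM, counts per 1e6: a gene's UMIs in a class over all UMIs that the class held, with exact 95% Poisson intervals, and ratios on the log2 scale, always of SPP1-nAb to IgG, with exact binomial intervals. These intervals cover counting error only, so a difference between libraries and a difference between treatments cannot be told apart. A ratio is said to lie past 1.5-fold where it was at least 1.5 in either direction, its interval excluded 1, the gene had at least 50 UMIs over both libraries, and the class had at least 50 cells in each.

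Among the gated classes, which include no myofibres, each gene had its own set of source cells, as the map of levels by class shows. Igf1 was highest in FAPs, Igf2 in myogenic cells, Igfbp2 in SCs, Igfbp5 in SCs, Igfbp6 in adventitial fibroblasts, and Igfbp7 in endothelial cells and pericytes. The receptor Igf1r lay between 95.5 and 265 CPM in every stromal, myogenic and Schwann class. Values are comparable across classes within a gene, and levels of different genes were not compared with each other.

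**Figure D1:**
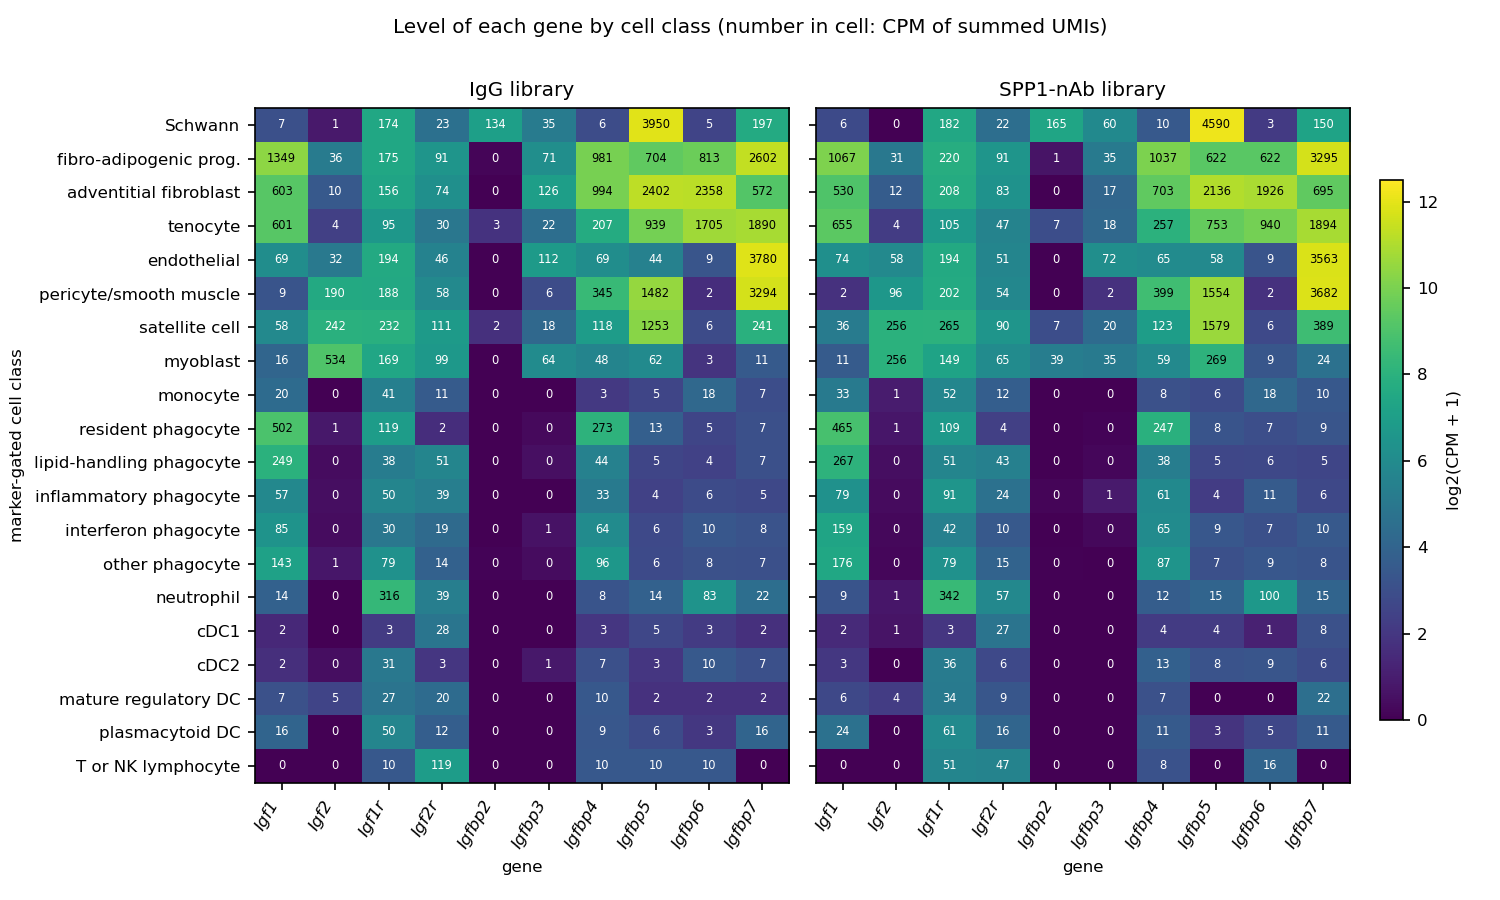
Level of each of the 10 genes (columns) in 20 cell classes (rows) of the IgG library (left) and the SPP1-nAb library (right), as CPM of summed UMIs printed in each cell and coloured on a log2(CPM + 1) scale. Igf1 reached 1349 CPM in IgG fibro-adipogenic progenitors, and Igfbp2 was at 134 and 165 CPM in Schwann cells. Phagocyte classes held Igf1, Igf1r and Igfbp4, and the classes other than resident phagocytes also Igf2r, but little of the other members.

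The libraries held different proportions of cells, and the shares of a transcript's UMIs held by each class also differed. The part of cell proportions in these shares was not tested. The 4 fibroblast classes (FAPs, adventitial fibroblasts, tenocytes and nerve-sheath fibroblasts) held 51.0% of the Igf1 UMIs in the IgG library and 24.5% in the SPP1-nAb library, out of 28417 and 27243 UMIs. The 5 phagocyte classes held 40.1% and 65.3%. Within these, lipid-handling phagocytes went from 10.4% to 32.0% of all Igf1 UMIs, while resident phagocytes held 21.4% and 17.8%. The main cellular holder of Igf1 transcripts was thus the FAP in the IgG library (41.8%) and the lipid-handling phagocyte in the SPP1-nAb library. For Igf2r the share in lipid-handling phagocytes was 18.3% and 37.7%, and for Igfbp5 the share in SCs was 16.8% and 27.8%. Over all kept cells, 9 of the 10 members had a lower CPM in the SPP1-nAb library, led by Igfbp3, at 5.45 CPM in SPP1-nAb and a log2 ratio of -1.64, and Igfbp6, at 226 and 77.5 CPM. The exception was Igfbp2, at 2.43 and 3.02 CPM. The share of all genes that were lower over all kept cells was not computed, so this count is not read as particular to the members. For Igf1r the difference was small, at 101 and 96.6 CPM. The number of cells in fibroblast classes was lower in the same library, and its part in these whole-library levels was not tested. FAPs numbered 1671 and 663, with medians of 4853 and 7747 UMIs per cell, and tenocytes 666 and 367, so these classes had fewer cells while UMIs per FAP were higher. For Igf2, fibroblast classes held only 16.3% and 9.49% of the UMIs.

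**Figure D2:**
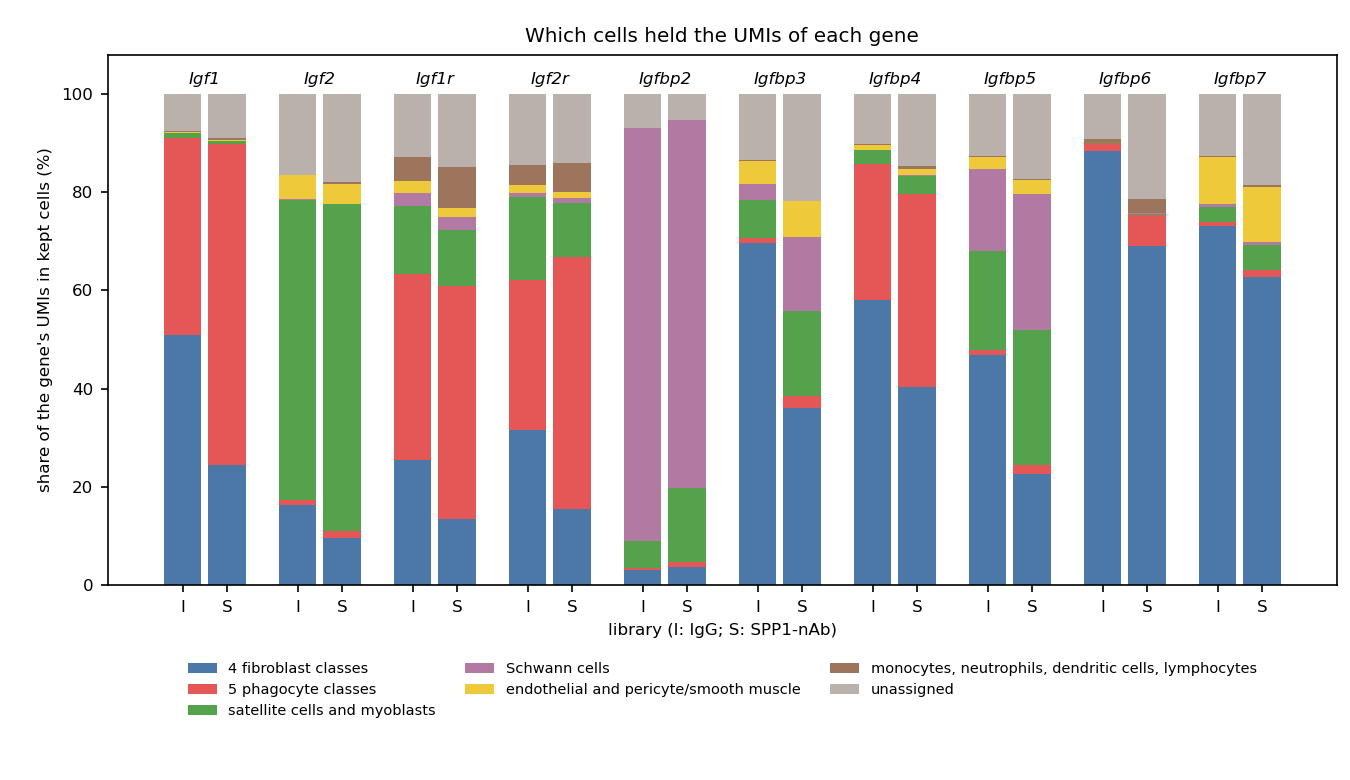
Share of each gene's UMIs in kept cells (vertical axis, %) held by groups of cell classes, for the IgG (I) and SPP1-nAb (S) libraries. Fibroblast classes held 51.0% of Igf1 UMIs in IgG and 24.5% in SPP1-nAb, and the 5 phagocyte classes 40.1% and 65.3%.

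Within classes, 99 of the 180 possible pairs of a member and a class (10 genes in 18 classes) had enough UMIs for a ratio. Of these, 11 lay past 1.5-fold higher in SPP1-nAb, or 11.1%, where 4.10% of all gene and class pairs did so. Lower in SPP1-nAb were 9, or 9.09%, where 4.45% of all pairs were. Among the higher ones, Igf2r in resident phagocytes, Igfbp5 in interferon phagocytes, Igfbp6 in inflammatory phagocytes and Igfbp4 in cDC2 were at low levels that other classes without a clear source also had. With pairs limited to a mean level of at least 20 CPM, a limit chosen after the data were seen, 7 of 74 were higher, or 9.46% (background 3.53%), and 7 lower (background 3.22%). Without that limit, the classes with the most members past 1.5-fold were inflammatory and interferon phagocytes. Inflammatory phagocytes had 3 of 6 higher (background 3.76%) and 1 lower (3.20%). Interferon phagocytes had 2 of 7 higher (3.09%) and 1 lower (3.24%). The median log2 ratio of the 6 members in inflammatory phagocytes was 0.66, beside 0.06 over the 8349 genes measured there. The 6 include Igfbp6 (6.21 and 11.1 CPM) and Igfbp7 (5.44 and 5.57 CPM), both at low levels in this class. The make-up of this class differed between libraries. A cluster of cells led by Ly6c2, Ly6a and Isg15 held 21.9% of it in IgG and 3.58% in SPP1-nAb, and its part in these ratios was not tested. In FAPs 0 of 9 were higher (5.91%) and 1 lower (7.43%), and in satellite cells 1 of 9 was higher (6.07%) and 1 lower (4.31%). In the remaining classes at most 2 members lay past 1.5-fold.

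**Figure D3:**
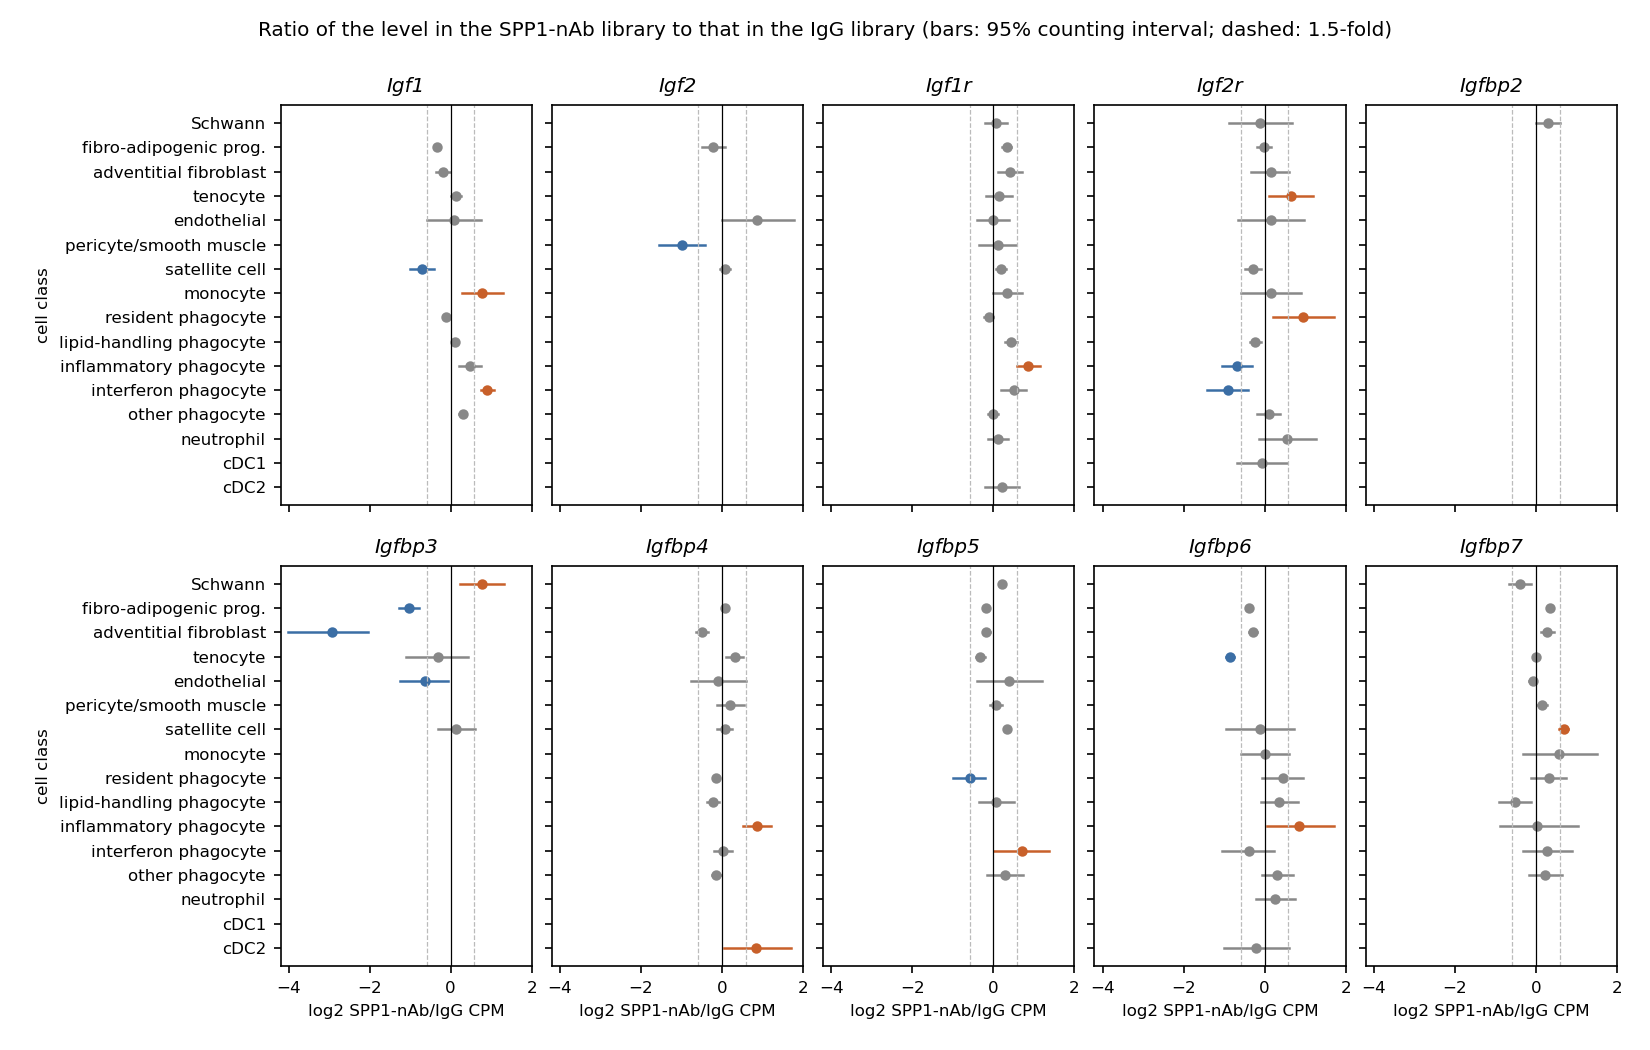
Log2 ratio of the SPP1-nAb level to the IgG level for each gene (panels) and cell class (rows), with 95% counting intervals; dashed lines mark 1.5-fold, orange points are past it higher and blue points past it lower. Most points lie between the dashed lines, and Igfbp3 in adventitial fibroblasts is the farthest from 0, at -2.94.

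The gene Igf1 (chr10:87693642-87772904, plus strand, GRCm39) encodes the growth factor itself. In FAPs it stood at 1349 CPM (interval 1325 to 1373) with IgG and at 1067 CPM (1039 to 1096) with SPP1-nAb, a log2 ratio of -0.34 that did not reach 1.5-fold. Tenocytes, the fibroblasts of tendon, were at 601 and 655 CPM. Adventitial fibroblasts were at 603 and 530 CPM, within the counting error of tenocytes in IgG but not in SPP1-nAb. Among phagocytes the order was the same in both libraries: resident phagocytes had 502 and 465 CPM, lipid-handling phagocytes 249 and 267 CPM, other phagocytes 143 and 176 CPM. At a fixed 2000 UMIs per cell, an Igf1 UMI was found in 75.4% and 71.4% of FAPs and in 54.5% and 53.1% of resident phagocytes. Without thinning these shares were 86.5% and 86.4% in FAPs and 69.6% and 70.8% in resident phagocytes. T or NK lymphocytes had 0 Igf1 UMIs, which allows up to 29.6 and 11.7 CPM (3 counts). Among classes with more UMIs, conventional dendritic cells (cDC1) gave the low end, at 1.75 and 1.78 CPM, with an Igf1 UMI in 0.74% of 271 IgG cells and in 0 of 220 SPP1-nAb cells at that depth, which allows a share of up to 1.36%. SCs were at 7.22 and 6.07 CPM on 9 UMIs each.

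Igf1 lay past 1.5-fold in 3 classes. In interferon phagocytes, macrophages with an interferon response, it stood at 84.7 CPM (77.3 to 92.6) with IgG and 159 CPM (148 to 170) with SPP1-nAb. The log2 ratio was 0.91 (0.74 to 1.07), and an Igf1 UMI was found in 11.5% and 20.1% of these cells at 2000 UMIs per cell, or 18.97% and 33.2% without thinning. In monocytes the levels were 19.6 and 33.3 CPM on 49 and 110 UMIs, a log2 ratio of 0.77 (0.27 to 1.28). Satellite cells, the stem cells of muscle, moved the opposite way, at 58.2 CPM (51.5 to 65.6) and 35.7 CPM (30.2 to 41.9), a log2 ratio of -0.71, with an interval that ended at -0.41. Endothelial cells were at 69.4 and 73.7 CPM on 39 and 43 UMIs, with an interval from -0.57 to 0.75.

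The phagocytes were then split into clusters, found on all genes except the 10 members and Spp1, of which 18 held at least 50 phagocytes of each library. Igf1 could be compared in 17 of the 18 clusters. In 7 it lay past 1.5-fold higher in SPP1-nAb and in 0 lower, where over all genes 3.65% of such pairs were past higher and 3.40% past lower. The median log2 ratio over the 17 was 0.17, and the range was -0.19 to 2.18. The clusters with the highest Igf1 were close in both libraries: the one led by the resident macrophage genes Lyve1, Cd209f and Cd163 had 648 and 658 CPM, and the one led by Mir99ahg, Egr1 and Gas6 had 477 and 532 CPM. The cluster led by Gpnmb, Syngr1 and Fabp4 had 344 and 301 CPM.

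Clusters with low Igf1 in IgG held the larger ratios. The IgG level is also the denominator of the ratio, so this link is in part built in. The cluster led by Ear2, Retnla and Rnase2a stood at 39.1 CPM (30.1 to 49.9) in IgG, on 64 UMIs, and 177 CPM (165 to 189) with SPP1-nAb, on 806 UMIs. That is a log2 ratio of 2.18 (1.81 to 2.57). The cluster led by the monocyte genes Ly6c2, Plac8 and Ms4a4c stood at 37.1 CPM (32.1 to 42.7) and 115 CPM (106 to 124), with 1102 and 1037 cells. An interferon-gene cluster led by Rsad2, Ifit2 and Ifit3 had 51.8 and 124 CPM, and the cluster led by Tnip3, Sirpb1c and H2-DMb1 had 34.0 and 78.4 CPM. In all 4 of these clusters the intervals of the libraries did not overlap. Another interferon-gene cluster, led by Iigp1, Ifit2 and Ifit3, had 308 and 335 CPM, with 594 and 577 cells. Its log2 ratio was 0.12 (-0.02 to 0.26). Of interferon phagocytes, it held 19.7% and 25.4%, the Rsad2-led cluster 31.5% and 16.5%, and the Ly6c2-led cluster 38.6% and 40.8%. The part of these shares in the class ratio was not tested. Smaller ratios past 1.5-fold were found in the cluster led by Nrg1, Gja1 and Snx6 (128 and 216 CPM), in that led by Chil3, Cdk8 and Dqx1 (128 and 198 CPM), and in a cluster led by the myofibre genes Tnnt3, Mylpf and Acta1 (323 and 514 CPM). The cluster led by Spp1, Fabp4 and Fabp5 had 224 and 335 CPM and lay just under 1.5-fold, at a log2 ratio of 0.58.

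**Figure D4:**
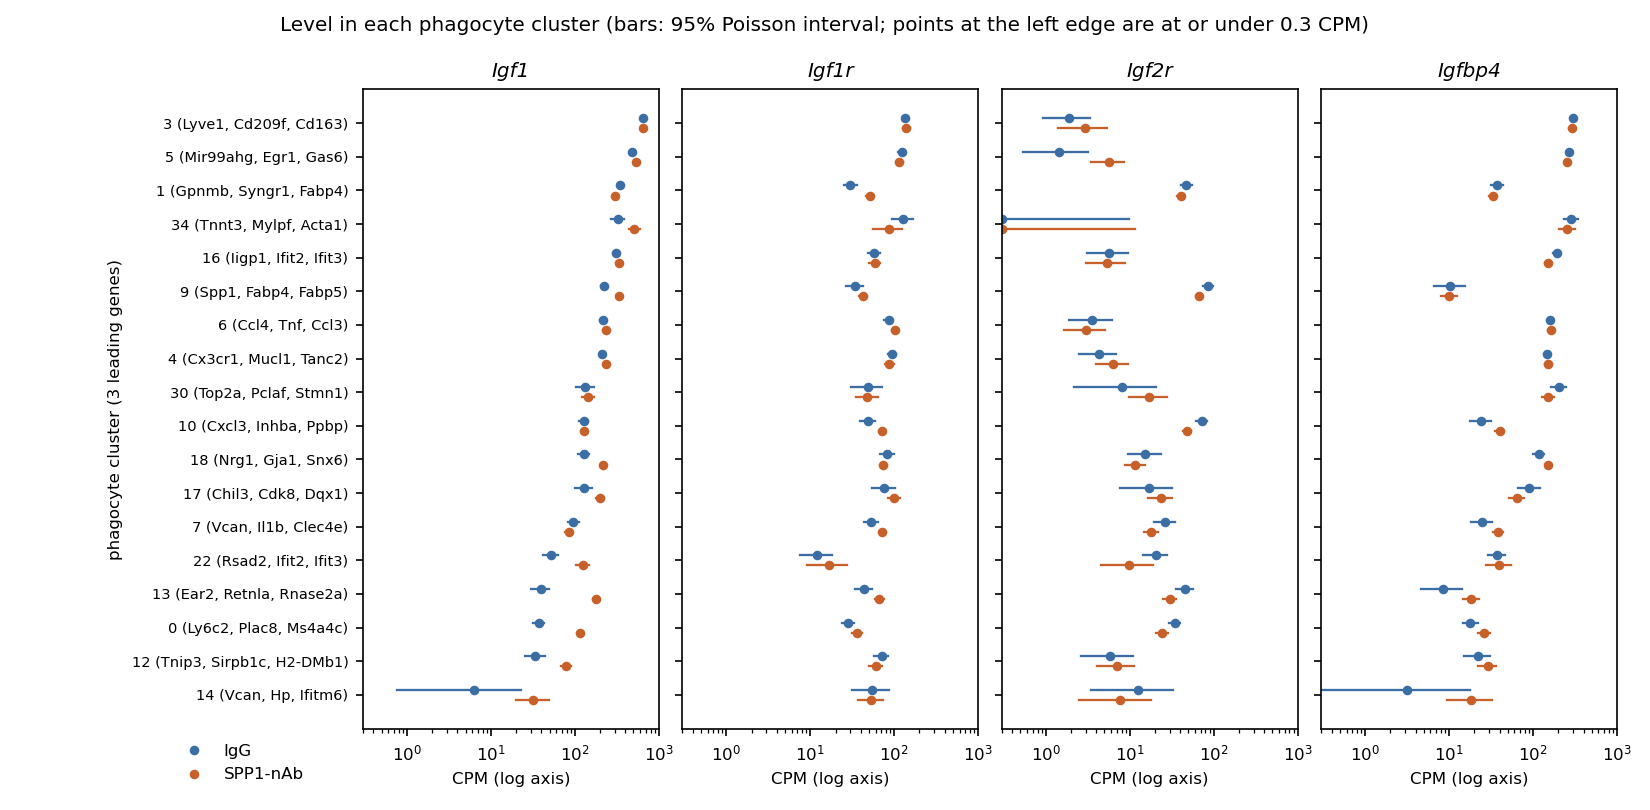
Level in CPM (log axis) of Igf1, Igf1r, Igf2r and Igfbp4 in the 18 phagocyte clusters, ordered by Igf1 in IgG, with 95% Poisson intervals (blue, IgG; orange, SPP1-nAb). Igf1 was close between libraries at the top of the order, at 648 and 658 CPM in the Lyve1-led cluster, and apart in the Ear2-led cluster, at 39.1 and 177 CPM.

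In FAPs, the class with the highest Igf1, most cells of the 2 libraries came from different clusters. The libraries were clustered without batch integration, so an offset between libraries and a difference in the cells present cannot be told apart. The cluster led by Postn, Cthrc1 and Tnc, genes of matrix-depositing fibroblasts, held 26.7% of IgG FAPs and 74.8% of SPP1-nAb FAPs, and the one led by C7, Inmt and Gdf10 held 47.9% and 19.9%. Igf1 was at 1283 and 1105 CPM in the former and at 1105 and 951 CPM in the latter, so neither reached 1.5-fold. Another FAP cluster, led by Kcnb2 and Dlk1, had 234 IgG cells but 3 SPP1-nAb cells, and held Igf1 at 2879 CPM (2780 to 2980) in IgG. A like split was present in satellite cells: the cluster led by Gal, Nppc and Meg3 had 693 IgG cells and 16 SPP1-nAb cells, with Igf1 at 74.9 CPM in IgG. In the satellite cluster led by Ccn2 and Sparcl1, which held 51.9% and 80.7% of the class, Igf1 was at 48.2 and 40.9 CPM, with an interval from -0.61 to 0.14. Without clusters of which 1 library held over 90% of cells, an alternative chosen after the data were seen, Igf1 in satellite cells was no longer past 1.5-fold, at a log2 ratio of -0.51. The same held for the mean over cells of each cell's CPM, at -0.41.

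The second ligand, Igf2 (chr7:142204503-142220694, minus strand), is an imprinted growth factor of fetal and regenerating muscle. Satellite cells held 51.9% of its 2183 UMIs in IgG and 59.1% of its 1812 UMIs in SPP1-nAb. Their level was 242 CPM (228 to 256) and 256 CPM (241 to 272), a log2 ratio of 0.08 (-0.04 to 0.20). Myoblasts, the committed progeny, stood at 534 CPM (463 to 614) with IgG and 256 CPM (215 to 303) with SPP1-nAb, but with 51 and 49 cells they were under the minimum for a ratio call. In IgG myoblasts were above satellite cells, and in SPP1-nAb the intervals of both classes overlapped. In pericytes and smooth muscle, Igf2 stood at 190 CPM (152 to 233) with IgG and 96.1 CPM (68.3 to 131) with SPP1-nAb on 89 and 39 UMIs. That was past 1.5-fold lower, at a log2 ratio of -0.98 (-1.56 to -0.42). In the immune classes it was under 5 CPM.

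The pericyte and smooth muscle class divided into clusters that differed in Igf2. In the cluster led by Pln and Sorbs2, genes of contractile cells, Igf2 was at 216 and 80.4 CPM, a log2 ratio of -1.43 (-2.18 to -0.73). In the cluster led by the pericyte gene Abcc9 and by Csmd1 it was at 144 and 135 CPM, with an interval from -1.13 to 0.92. A satellite cluster led by the cell cycle genes Top2a and Mki67 and by Ttn had 104 and 120 cells. Its Igf2 was at 525 CPM (472 to 583) with IgG and 281 CPM (251 to 314) with SPP1-nAb. Its Igf1 was at 64.9 and 22.7 CPM. Satellite cells with UMIs of at least 2 markers of cycling cells numbered only 41 and 51 over all clusters, with Igf2 at 259 and 140 CPM. Most satellite cells of the Top2a-led cluster thus had fewer of these markers. The satellite cluster led by Ccn2 had Igf2 at 265 and 259 CPM. In FAPs of the Postn-led cluster Igf2 was at 66.7 and 35.8 CPM, a log2 ratio of -0.90, although FAPs as a class were at 36.4 and 31.4 CPM.

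**Figure D5:**
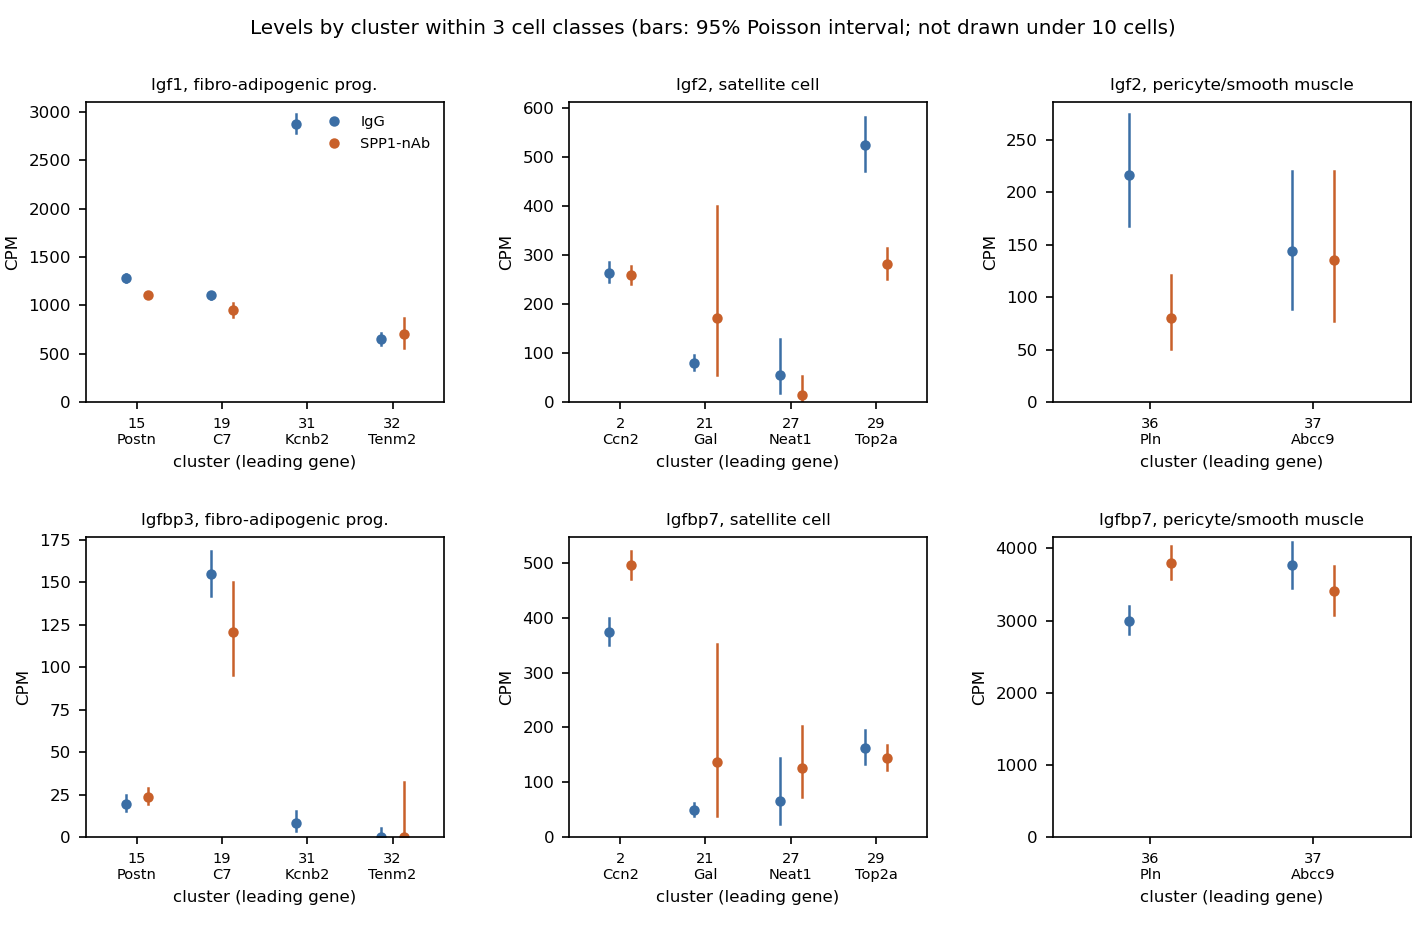
Levels (CPM, with 95% Poisson intervals; blue, IgG; orange, SPP1-nAb) of 2 members each in the clusters of fibro-adipogenic progenitors, satellite cells, and pericytes or smooth muscle, with clusters named by their leading gene. Igf2 was at 525 and 281 CPM in the Top2a-led satellite cluster and at 265 and 259 CPM in the Ccn2-led one.

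Of the receptors, Igf1r (chr7:67601518-67883416, plus strand) encodes the signalling receptor of both ligands. It was highest in neutrophils, short-lived granulocytes, at 316 CPM (272 to 365) and 342 CPM (313 to 372). Satellite cells followed at 232 and 265 CPM, within the counting error of endothelial cells in IgG but not in SPP1-nAb. Endothelial cells (194 and 194 CPM), pericytes (188 and 202 CPM), FAPs (175 and 220 CPM), SCs (174 and 182 CPM) and adventitial fibroblasts (156 and 208 CPM) came next. Their order differed between libraries, and in both of them each overlapped its neighbours among these classes and myoblasts. At 2000 UMIs per cell an Igf1r UMI was found in 36.2% and 38.2% of satellite cells and 28.3% and 28.9% of SCs, or 39.1% and 53.6%, and 33.8% and 42.9%, without thinning. Cells under 2000 UMIs were left out of the thinned shares, 725 and 287 satellite cells and 97 and 54 SCs. The low end was cDC1 at 3.50 and 2.96 CPM, with an Igf1r UMI in 0 of 271 and 1 of 220 cells. In 1 of the 15 classes with enough UMIs, inflammatory phagocytes, Igf1r lay past 1.5-fold: 50.1 CPM (41.8 to 59.5) with IgG and 90.8 CPM (83.9 to 98.1) with SPP1-nAb, a log2 ratio of 0.86 (0.58 to 1.14). By cluster it lay past 1.5-fold higher in 2 of 17 phagocyte clusters, the Gpnmb-led one at 30.0 and 50.9 CPM and the Ear2-led one at 43.4 and 66.6 CPM. With satellite cells split by cluster, those in the cluster led by Neat1 and Plcl1 had the highest Igf1r, at 607 and 968 CPM. They numbered only 60 and 80, in a mixed cluster of 506 cells that was assigned to no class. Their medians were 1174.5 and 1390 UMIs, beside 2180 and 2977 over all satellite cells.

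The clearance receptor Igf2r (chr17:12901293-12988614, minus strand) was highest in stromal and myogenic cells, with satellite cells at 111 and 90.3 CPM and FAPs at 91.5 and 90.5 CPM. T or NK lymphocytes were at 119 and 46.7 CPM, but on 12 UMIs in each library. Phagocytes differed among themselves. Lipid-handling phagocytes were at 50.7 CPM (46.8 to 54.9) and 43.1 CPM (40.9 to 45.4), whereas resident phagocytes were at 2.15 CPM (1.40 to 3.15) and 4.13 CPM (2.99 to 5.57). Inflammatory phagocytes had 39.2 and 24.3 CPM, a log2 ratio of -0.69 (-1.06 to -0.32), and interferon phagocytes 19.3 and 10.3 CPM, a log2 ratio of -0.91 (-1.42 to -0.42), both past 1.5-fold lower. In the 7 phagocyte clusters where Igf2r could be compared, the log2 ratio was between -0.61 and -0.22, and 2 clusters were past 1.5-fold lower. These were the cluster led by Cxcl3, Inhba and Ppbp (72.0 and 47.9 CPM) and the Ear2-led one (45.8 and 30.0 CPM). Resident phagocytes (26 and 43 UMIs) and tenocytes (29.8 and 46.5 CPM, on 58 and 63 UMIs) lay past 1.5-fold higher. The share of resident phagocytes with an Igf2r UMI was 0.37% and 0.83% at 2000 UMIs per cell, or 0.74% and 1.75% without thinning. In cDC2, the other class with under 6 CPM, the thinned shares were 0.19% and 0.93%, so the resident phagocyte values read as background.

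The antisense transcript Airn overlaps Igf2r on the opposite strand and silences the paternal allele in mouse development. It had 13246 and 13011 UMIs, and among 7885 genes its levels were most like those of Igf2r over the 40 class and library profiles, with Pearson's r = 0.84 on log2(CPM + 1). The study's methods give Cell Ranger with default settings, under which only reads on the sense strand of a gene count for it. Whether reads of Igf2r and Airn were fully counted apart was not checked on reads. The genes Igf1os (193 and 178 UMIs) and Polr2b (2257 and 2730 UMIs) likewise overlap Igf1 and Igfbp7 on the opposite strand.

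Among the binding proteins, Igfbp2 (chr1:72863606-72891634, plus strand) was found mainly in SCs, the glia of peripheral nerve, which held 83.9% of its 199 UMIs in IgG and 75.1% of its 325 in SPP1-nAb. The level in SCs was 134 CPM (114 to 156) and 165 CPM (145 to 187), a log2 ratio of 0.30 (0.01 to 0.59) that did not reach 1.5-fold. Of SCs, 10.6% and 10.0% had an Igfbp2 UMI, or 9.73% and 9.64% at 2000 UMIs per cell. In the SC cluster led by Klk9, with 198 and 191 cells, Igfbp2 was at 282 CPM (240 to 328) and 361 CPM (317 to 410). SCs were also split by a UMI of Reln, which encodes a secreted glycoprotein and was chosen after its values were seen. The 183 and 221 cells with a Reln UMI held 1 and 3 Igfbp2 UMIs, and the 243 and 217 cells without one held 166 and 241, a level of 249 and 329 CPM. No FAP had an Igfbp2 UMI at that depth, among 1565 and 632 cells. Myoblasts had 0 UMIs in IgG, which allows up to 8.05 CPM (3 counts), and 21 in SPP1-nAb, a level of 38.7 CPM in 8 cells. Satellite cells had 11 and 28 UMIs, at 2.35 and 6.71 CPM.

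The gene Igfbp5 lies 5.457 kb from Igfbp2 (chr1:72897091-72914043, minus strand), with both genes ending toward each other. It encodes a matrix-binding member of the family. SCs also had its highest level, at 3950 CPM (3840 to 4061) and 4590 CPM (4481 to 4700), a log2 ratio of 0.22. Within SCs its pattern was opposite to that of Igfbp2: cells with a Reln UMI were at 6722 and 7779 CPM and those without at 1536 and 1322 CPM. The Klk9-led cluster was at 606 and 716 CPM. Adventitial fibroblasts followed at 2402 and 2136 CPM, pericytes at 1482 and 1554 CPM, and satellite cells at 1253 and 1579 CPM. In SPP1-nAb the intervals of pericytes and satellite cells overlapped. Myoblasts, with too few cells for a ratio call, were at 61.8 and 269 CPM. In the classes with enough cells, Igfbp5 did not reach 1.5-fold where it was above 100 CPM in both libraries. Within tenocytes, however, the main cluster, which had 635 and 347 cells, was at 1097 and 725 CPM, a log2 ratio of -0.60. Resident phagocytes (12.6 and 8.36 CPM) and interferon phagocytes (5.83 and 9.46 CPM) lay past 1.5-fold in opposite directions, but neutrophils and monocytes were also at 5 to 16 CPM, so these levels read as background.

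For Igfbp3 (chr11:7156086-7164179, minus strand), the main carrier of IGFs in serum, adventitial fibroblasts, endothelial cells and FAPs had the highest levels in IgG, and all 3 lay past 1.5-fold lower in SPP1-nAb. FAPs stood at 71.4 CPM (65.9 to 77.2) and 34.9 CPM (29.9 to 40.4), a log2 ratio of -1.03 (-1.28 to -0.79). The C7-led FAP cluster was at 155 and 121 CPM, and the Postn-led cluster was at 19.6 and 23.7 CPM, so neither cluster reached 1.5-fold by itself. Adventitial fibroblasts stood at 126 CPM (112 to 141) and 16.5 CPM (7.91 to 30.4), a log2 ratio of -2.94 (-4.01 to -2.04). There 10 cells held 82.5% of the 297 IgG UMIs, and the SPP1-nAb level rested on 10 UMIs in 3 of 87 cells. Endothelial cells were at 112 and 71.9 CPM, a log2 ratio of -0.64 (-1.24 to -0.05). SCs had the opposite direction, at 35.3 CPM (25.7 to 47.4) and 60.0 CPM (48.2 to 73.9) on 44 and 89 UMIs. In SCs with a Reln UMI Igfbp3 was at 56.9 and 103 CPM. Satellite cells were close between libraries, at 17.9 and 19.6 CPM.

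The levels of Igfbp4 (chr11:98932064-98945218, plus strand), a binding protein cut by the protease encoded by Pappa, were highest in FAPs, at 981 and 1037 CPM, and adventitial fibroblasts, at 994 and 703 CPM. Those intervals overlapped in IgG but not in SPP1-nAb. Resident phagocytes were the highest of the immune classes, at 273 CPM (263 to 282) and 247 CPM (237 to 256), and lipid-handling phagocytes had 43.9 and 37.7 CPM. Inflammatory phagocytes stood at 33.4 CPM (26.7 to 41.2) and 60.7 CPM (55.0 to 66.7), a log2 ratio of 0.86 (0.52 to 1.21) past 1.5-fold. In phagocyte clusters Igfbp4 lay past 1.5-fold higher in 3 of 17, with the Cxcl3-led cluster at 23.7 and 40.3 CPM. The ratio in cDC2 also lay past 1.5-fold, but at 7.34 and 13.2 CPM, near the 8.50 and 11.9 CPM of neutrophils and the 6.42 and 10.1 CPM of SCs.

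The binding protein Igfbp6 (chr15:102052697-102057953, plus strand), which prefers IGF2, was a fibroblast transcript, with 88.4% of its UMIs in the 4 fibroblast classes in IgG and 69.0% in SPP1-nAb. Adventitial fibroblasts were highest, at 2358 and 1926 CPM. Tenocytes stood at 1705 CPM (1647 to 1764) and 940 CPM (889 to 994), past 1.5-fold lower at a log2 ratio of -0.86 (-0.95 to -0.76). In the main tenocyte cluster the levels were 1948 and 1007 CPM, a log2 ratio of -0.95. An Igfbp6 UMI was found in 81.6% and 70.9% of tenocytes at 2000 UMIs per cell, or 80.9% and 75.7% without thinning, and in 1.04% and 0.60% of thinned satellite cells. FAPs were at 813 and 622 CPM. Neutrophils were the one immune class above background, at 83.3 and 99.9 CPM, beside 17.6 and 17.6 CPM in monocytes. Inflammatory phagocytes, whose ratio lay past 1.5-fold, were at 6.21 and 11.1 CPM, a level near that of cDC2 at 10.3 and 8.92 CPM.

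The transcript of Igfbp7 (chr5:77493130-77555931, minus strand), a vascular and matrix protein that binds IGFs weakly, was highest in endothelial cells, at 3780 and 3563 CPM, and in pericytes, at 3294 and 3682 CPM. FAPs followed at 2602 CPM (2568 to 2636) and 3295 CPM (3245 to 3345). That difference did not reach 1.5-fold, and in the Postn-led FAP cluster the levels were 3461 and 3294 CPM. The C7-led FAP cluster had 2372 and 3684 CPM, a log2 ratio of 0.63. Satellite cells stood at 241 CPM (227 to 255) and 389 CPM (370 to 408), past 1.5-fold higher at a log2 ratio of 0.69 (0.58 to 0.80). An Igfbp7 UMI was found in 28.3% and 42.7% of satellite cells at 2000 UMIs per cell, or 27.5% and 48.4% without thinning, and in 1.54% and 2.07% of thinned resident phagocytes. In the Ccn2-led satellite cluster the levels were 374 and 496 CPM, which did not reach 1.5-fold, and the Gal-led cluster, nearly all IgG, had 48.5 CPM. Without clusters of which 1 library held over 90% of cells, the log2 ratio in satellite cells was 0.27 and no longer past 1.5-fold, and with 1 marker more needed per class it was 0.57, just under it. SCs were at 197 and 150 CPM, with cells without a Reln UMI (261 and 218 CPM) above those with one (124 and 82.6 CPM).

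The genes with the level patterns most like those of the members, by Pearson's r on log2(CPM + 1) over the same 40 profiles, are given as a description, since profiles of a library share depth and free RNA. For Igf1 they were Rnase4 (0.90), Gas6 (0.85) and Timp2 (0.84). For Igf2 they were Cdh13 (0.91), Cavin2 and Ptprk, and for Igfbp2 they were Sox2ot (0.92), Mlip and Hmga2. Igfbp3 was most like S100a16 (0.96), Hspg2 and Tspan6. Igfbp5 was most like Kirrel (0.97), Ptpn13 and Arhgef25, and Igfbp7 most like the basement membrane collagens Col4a2 (0.97) and Col4a1 (0.96). Igfbp4 was most like Bmp2 (0.89), Cp and Gas6, and Igfbp6 most like Myoc (0.91) and the matrix proteoglycans Dcn and Lum. Igf1r had lower values, led by Mettl9 (0.83).

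Other genes of the pathway were counted in 8 lists over the same 18 classes, beside the 4.10% of all pairs past 1.5-fold higher and 4.45% lower. Clusters made up different shares of FAPs and of satellite cells in the 2 libraries. Their part in the ratios of these classes was not tested. The growth hormone axis (6 genes, 74 pairs of a gene and a class with enough UMIs), which induces Igf1 in liver and muscle, had 11 pairs higher and 0 lower. Of these, 3 were in FAPs: Socs2, a feedback inhibitor of growth hormone signalling, at 70.9 and 119 CPM, Jak2, the kinase of that receptor, at 88.1 and 140 CPM, and Cish, at 3.30 and 7.25 CPM on 29 and 37 UMIs. The growth hormone receptor gene Ghr was highest in tenocytes (377 and 392 CPM) and FAPs (320 and 401 CPM) and past 1.5-fold in neither. The PI3K, AKT, mTOR and FOXO list (18 genes, 262 pairs) had 5 higher and 7 lower, a share of 1.91% and 2.67%, and 0 of 17 genes past 1.5-fold in FAPs and 0 of 17 in satellite cells. The insulin receptor and its substrates (11 genes, 90 pairs) had 6 higher and 1 lower. Insr was highest in endothelial cells, at 96.1 and 125 CPM, and the adaptor Sh2b2 lay past 1.5-fold in satellite cells, at 10.9 and 25.1 CPM, and in FAPs, at 6.59 and 11.95 CPM. The one lower was the adaptor Grb14 in FAPs, at 5.23 and 2.74 CPM on 46 and 14 UMIs.

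The proteases of binding proteins and their inhibitors (9 genes, 35 pairs) had 6 higher and 1 lower. The one lower was Pappa in SCs, at 41.7 CPM (31.2 to 54.7) and 21.6 CPM (14.8 to 30.5) on 52 and 32 UMIs, while its inhibitor Stc2 was highest in SCs, at 413 and 420 CPM. FAPs had the highest Pappa, at 52.5 and 39.2 CPM. The secreted proteases Htra1 (204 and 234 CPM) and Htra3 (288 and 391 CPM) were highest in adventitial fibroblasts, and the lysosomal protease Ctsd in lipid-handling phagocytes (1500 and 1748 CPM). Ctsd lay past 1.5-fold higher in satellite cells, at 51.6 and 77.6 CPM. The RNA-binding and imprinted partners of Igf2 (9 genes, 47 pairs) had 6 higher and 8 lower. Among them, H19, the non-coding neighbour of Igf2, was at 86.7 and 134 CPM in FAPs, where it is a leading gene of the Postn-led cluster that held most SPP1-nAb FAPs. Igf2bp2, which binds Igf2 mRNA, was at 16.9 and 50.1 CPM in satellite cells and at 35.2 and 54.7 CPM in FAPs. Dlk1 in FAPs (65.7 and 10.8 CPM) and Meg3 in satellite cells (588 and 187 CPM) were lower, and each is a leading gene of a cluster found nearly only in IgG. The mannose 6-phosphate receptor partners (6 genes, 71 pairs) had 3 higher and 4 lower, with the urokinase receptor gene Plaur higher in FAPs, at 19.4 and 38.6 CPM, and in satellite cells, at 64.0 and 109 CPM. The other binding proteins and complex members (6 genes, 16 pairs) had 1 higher and 3 lower, with Kazald1 at 19.1 and 10.4 CPM in FAPs. The muscle atrophy targets (4 genes, 13 pairs) had 2 higher and 0 lower, with the receptor gene Eda2r at 20.3 and 31.9 CPM in satellite cells.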

How the data were processed

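For each of the 2 libraries the authors deposited raw counts: UMIs per gene and barcode from the filtered output of Cell Ranger, aligned to GRCm39 with a Gfp sequence. The submitters' processing notes name version 8.0.0, and the file headers a later one. The authors' ambient RNA removal and cell type names were not used here. Barcodes with over 200 genes and under 10% mitochondrial UMIs were kept, and the 10% with the highest simulated-doublet scores removed. A cell took a class from the number of its 8 markers with a UMI (at least 3, or 4 for cDC1, cDC2 and plasmacytoid cells; phagocytes took a subset by 3 further markers, or 4 for lipid-handling ones), and cells reaching unrelated classes stayed unassigned. UMIs were summed per class and library. No test was made, as each condition had 1 library. Cells of both libraries were clustered together with leidenalg 0.10.2 at resolution 2 on 2000 variable genes, without the batch integration that the authors used. The ratio and call scripts were tested on simulated data. Coordinates are from the GRCm39 gene annotation, in which all 10 identifiers matched. The members and lists were chosen with earlier results of these data known. All 10 members are named, with, of the lists, those past 1.5-fold in the class highest in each ligand, the receptor and protease genes highest in a class, and the 3 most alike genes.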

Additional observations from a re-analysis of the deposited data

Results flagged for a closer look

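For 5 members, 1 class lay past 1.5-fold higher in SPP1-nAb and another past 1.5-fold lower. With 1 library per condition these differences between classes were not tested. The log2 ratio of Igf1 in interferon phagocytes was 1.61 above that in satellite cells, and the satellite value was lost when clusters held mostly by 1 library were left out (log2 -0.51) and for the mean over cells of each cell's CPM (-0.41). For Igf2r, resident phagocytes were 1.85 above interferon phagocytes, with resident phagocytes at 2.15 and 4.13 CPM. For Igfbp3, SCs were 3.70 above adventitial fibroblasts, where the SPP1-nAb level rested on 10 UMIs. For Igfbp6, inflammatory phagocytes, at 6.21 and 11.1 CPM, were 1.70 above tenocytes. For Igfbp5, interferon phagocytes were 1.28 above resident phagocytes, both at background level.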

How the results depend on the processing

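The count of pairs past 1.5-fold higher in SPP1-nAb was 11 and ranged from 6 to 16 over 15 alternatives. The 6 came from requiring 1 marker more per class, where 5 of the 11 pairs were kept, and the cause was not tested. With a mean level of at least 20 CPM it was 7 of 74 pairs, as fewer pairs were tested. The count lower was 9 and ranged from 6 to 11. No ratio changed direction past 1.5-fold. Past 1.5-fold in every alternative that gave a value were Igf1 in interferon phagocytes (log2 0.80 to 1.14) and monocytes (0.72 to 1.74), Igfbp3 in FAPs (-1.20 to -0.73) and adventitial fibroblasts (-4.28 to -2.52), Igfbp4 in inflammatory phagocytes (0.65 to 1.16) and Igfbp6 in tenocytes (-0.96 to -0.77). Igf2 in pericytes was lost in 2 of 12 alternatives, under 5% mitochondrial UMIs and at 2000 UMIs per cell (lowest size, log2 -0.47). In satellite cells, Igf1 was lost in 2 of 12, with the mean over cells and without clusters held over 90% by 1 library, and Igfbp7 in 2 of 12, with 1 marker more and without those clusters. Igfbp3 in SCs was lost in 2 of 12, with 1 marker more and at 2000 UMIs per cell. Igf1r in inflammatory phagocytes and Igf2r in interferon phagocytes were each lost when classes came from Leiden clusters (log2 0.43 and -0.50). Igf2r in resident phagocytes and in inflammatory phagocytes was lost in 3 alternatives each, Igfbp3 in endothelial cells in 4, and Igf2r in tenocytes, Igfbp4 in cDC2, Igfbp5 in both phagocyte classes and Igfbp6 in inflammatory phagocytes in 6 each. Estimated free RNA was 5.16% and 7.36% of FAP UMIs and 3.55% and 6.40% of interferon phagocyte UMIs. No paired analysis was possible because each condition had 1 library and no test was made.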
